A study of Mus musculus with 16 samples.

Results

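The genes described here are 47 genes of the lysosome, chosen by name: 19 hydrolases, 3 other lumenal proteins, 8 membrane proteins, the transcription factors Tfeb and Tfe3, and 15 subunits or accessory proteins of the vacuolar proton pump (V-ATPase). Cathepsins were left out of the choice. The 47 genes were taken from 52636 gene entries. Of these 47 genes, 45 exceeded the detection floor in at least 4 of 16 libraries and were tested together with all 11044 genes that did so. Cd63 and Atp6v0d2 were listed at 0 in all 16 libraries and were not tested. RNA was measured by Lexogen QuantSeq, which reads transcripts close to their poly(A) tail, in RAW264.7, a mouse cell line with macrophage properties. All cells received an siRNA at 25 nM for 24 h. The 4 groups were control siRNA, Cebpb siRNA, control siRNA with isoproterenol and Cebpb siRNA with isoproterenol, each with 4 libraries, 2 from each of 2 experiments. A single siRNA product was directed at Cebpb, which encodes the transcription factor C/EBPβ. Isoproterenol is an agonist of β-adrenergic receptors, and the sources used here do not state its dose or duration.

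Lysosomes are acidic organelles in which hydrolases degrade lipids, glycans and proteins delivered by endocytosis, phagocytosis and autophagy. The V-ATPase acidifies them: a cytosolic V1 sector hydrolyses ATP and a membrane V0 sector moves protons. In macrophages the compartment digests engulfed material. TFEB and TFE3 are known to raise the transcription of many lysosomal genes by binding an E-box element, called CLEAR, near their start sites.

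Because TFEB and TFE3 are among the genes studied, promoters (250 bases before to 50 after the annotated start, RefSeq, build GRCm38.p6) were searched for the E-box CACGTG and for its 8-letter form TCACGTGA, the core of the CLEAR element. Both are palindromes, so a match counts on both strands, and every 8-letter match contains a 6-letter match. Of the 47 genes, 40 had a promoter in the table. The 6-letter form was present in 12 of these 40 genes (30%), against 12.5% of the tested genes and 8.09% of all genes in the table. The 8-letter form was present in 5 of 40 (12.5%), against 2.47% and 1.13%. A match is a description of letters, and binding was not measured. The 5 promoters with the 8-letter form are shown because they belong to genes of 3 roles that moved in different directions after Cebpb siRNA. They are Atp6v0d1 at chr8:105566015-105566314 (minus strand), Atp6v1a at chr16:44139210-44139509 (minus strand), Gla at chrX:134600956-134601255 (minus strand), Mcoln1 at chr8:3500269-3500568 (plus strand) and Atp6v0e at chr17:26676146-26676445 (plus strand). Each is written 5′ to 3′ with the 8-letter form in capitals. Gla holds it 228 and 195 bases before the start.
Atp6v0d1: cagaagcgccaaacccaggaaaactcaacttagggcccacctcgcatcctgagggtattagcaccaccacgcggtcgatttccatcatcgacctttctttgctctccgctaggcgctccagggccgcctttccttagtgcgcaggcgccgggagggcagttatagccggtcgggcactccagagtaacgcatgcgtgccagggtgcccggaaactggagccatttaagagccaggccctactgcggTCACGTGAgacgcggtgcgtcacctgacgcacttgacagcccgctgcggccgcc
Atp6v1a: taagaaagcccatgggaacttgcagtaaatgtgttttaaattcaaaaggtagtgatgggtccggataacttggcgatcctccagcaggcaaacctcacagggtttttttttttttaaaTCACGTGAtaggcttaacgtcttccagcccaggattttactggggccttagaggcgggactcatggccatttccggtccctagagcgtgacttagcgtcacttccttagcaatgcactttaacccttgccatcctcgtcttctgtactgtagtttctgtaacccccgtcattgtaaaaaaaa
Gla: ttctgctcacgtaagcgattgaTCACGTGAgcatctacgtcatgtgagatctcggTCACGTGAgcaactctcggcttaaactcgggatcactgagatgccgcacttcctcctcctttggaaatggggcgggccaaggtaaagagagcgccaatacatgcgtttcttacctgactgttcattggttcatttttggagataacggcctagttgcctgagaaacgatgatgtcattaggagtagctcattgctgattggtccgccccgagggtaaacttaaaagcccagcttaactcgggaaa
Mcoln1: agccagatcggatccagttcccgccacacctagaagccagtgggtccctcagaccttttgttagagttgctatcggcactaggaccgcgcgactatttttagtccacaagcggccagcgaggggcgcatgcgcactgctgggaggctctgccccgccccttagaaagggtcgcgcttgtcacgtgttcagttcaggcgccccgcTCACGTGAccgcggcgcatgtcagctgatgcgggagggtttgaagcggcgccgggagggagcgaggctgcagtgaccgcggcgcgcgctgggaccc
Atp6v0e: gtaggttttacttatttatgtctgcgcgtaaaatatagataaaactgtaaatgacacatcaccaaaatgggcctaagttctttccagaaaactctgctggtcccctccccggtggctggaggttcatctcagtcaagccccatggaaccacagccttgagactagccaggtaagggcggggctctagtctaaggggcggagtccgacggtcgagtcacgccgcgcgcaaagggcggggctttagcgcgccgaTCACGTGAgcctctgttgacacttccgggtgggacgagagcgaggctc

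The targeted gene was checked first. Levels are given throughout as RPM, reads per 1000000 reads of all kinds, for experiment 1 (replicates 1 and 2) and then experiment 2 (replicates 1 and 2). Fold changes and percentages of control come from the fit on rescaled values and can differ from ratios of these levels. Cebpb (ENSMUSG00000056501.3, chromosome 2, 167688915 to 167690418, plus strand; GRCm38, GENCODE vM21) stood at 74.5, 61.3, 81.4 and 87.3 RPM with control siRNA and at 11.8, 24.96, 21.8 and 33.1 with Cebpb siRNA. With isoproterenol the levels were 101, 78.02, 99.1 and 90.6 with control siRNA and 28.5, 27.6, 25.8 and 23.9 with Cebpb siRNA. Every Cebpb siRNA library was below every control siRNA library with the same stimulation. The log2 fold change was −1.72 ± 0.20 (SE) without and −1.72 ± 0.20 with isoproterenol (limma adjusted p = 4.87e-07 and 4.50e-07).

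Libraries held 9.42 to 25.17 M reads (M, 1000000), of which 5.81 to 15.9 M fell on genes, and the lowest level the files list, 1 RPM, corresponds to 9 to 25 reads. The library with the fewest reads was replicate 2 of experiment 2 with Cebpb siRNA. Unmapped reads made up 5.07% to 5.94% of the control siRNA libraries and 5.90% to 7.61% of the Cebpb siRNA libraries, and their part in the results was not tested. All 8 macrophage markers were above the floor. Of 7 tested 5 were higher and 1 lower with Cebpb siRNA without isoproterenol, where 31.5% of all tested genes were higher and 29.8% lower. The 22 markers of B cells, T and NK cells, epithelia and fibroblasts were listed at 0 in every library. Of 9 osteoclast markers Acp5, Ctsk, Calcr, Oscar, Ocstamp and Itgb3 were listed at 0 throughout. The other 3, Dcstamp, Mmp9 and Nfatc1, were called higher with Cebpb siRNA without isoproterenol, and the summed level of the list was 98.8 to 181 RPM with control siRNA and 219 to 244 RPM with Cebpb siRNA. With isoproterenol the osteoclast sums overlapped, at 134 to 235 and 189 to 225 RPM, with 2 of the 3 called higher. Of the 7 macrophage markers 4 were higher and 2 lower there, where 32.1% of all tested genes were higher and 30% lower. The part of these markers in the results below was not tested.

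The comparison of Cebpb siRNA with control siRNA asks how lysosomal transcripts differ between these cells without stimulation. With a single siRNA product, lower Cebpb and other effects of that siRNA cannot be told apart. Lysosomal genes moved in both directions. Of 45 tested, 18 were higher and 15 lower (limma adjusted p below 0.05), where 31.5% of all tested genes were higher and 29.8% lower. Their median log2 fold change was 0.01, against 0.02 over all tested genes, and the range was −1.74 to 0.61. The median size of change, without regard to sign, was 0.35 for both. The largest decreases were in Atp6v0d1 and Gpnmb, which fell to 29.9% and 35.0% of control, and the largest increases, in Man2b1 and Atp6v1b2, were 1.53-fold and 1.52-fold. All 33 genes called had the same sign in each of the 2 experiments fitted alone. Both experiments entered the fit that called these genes, so the shared sign is no independent test. RNA came from whole cultures, so fewer cells of one kind and less RNA per cell cannot be told apart. On the values as deposited, without further scaling, 15 genes were called higher and 15 lower, and among all genes the split went from 3482 higher and 3294 lower to 2726 and 3917.

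**Figure D1:**
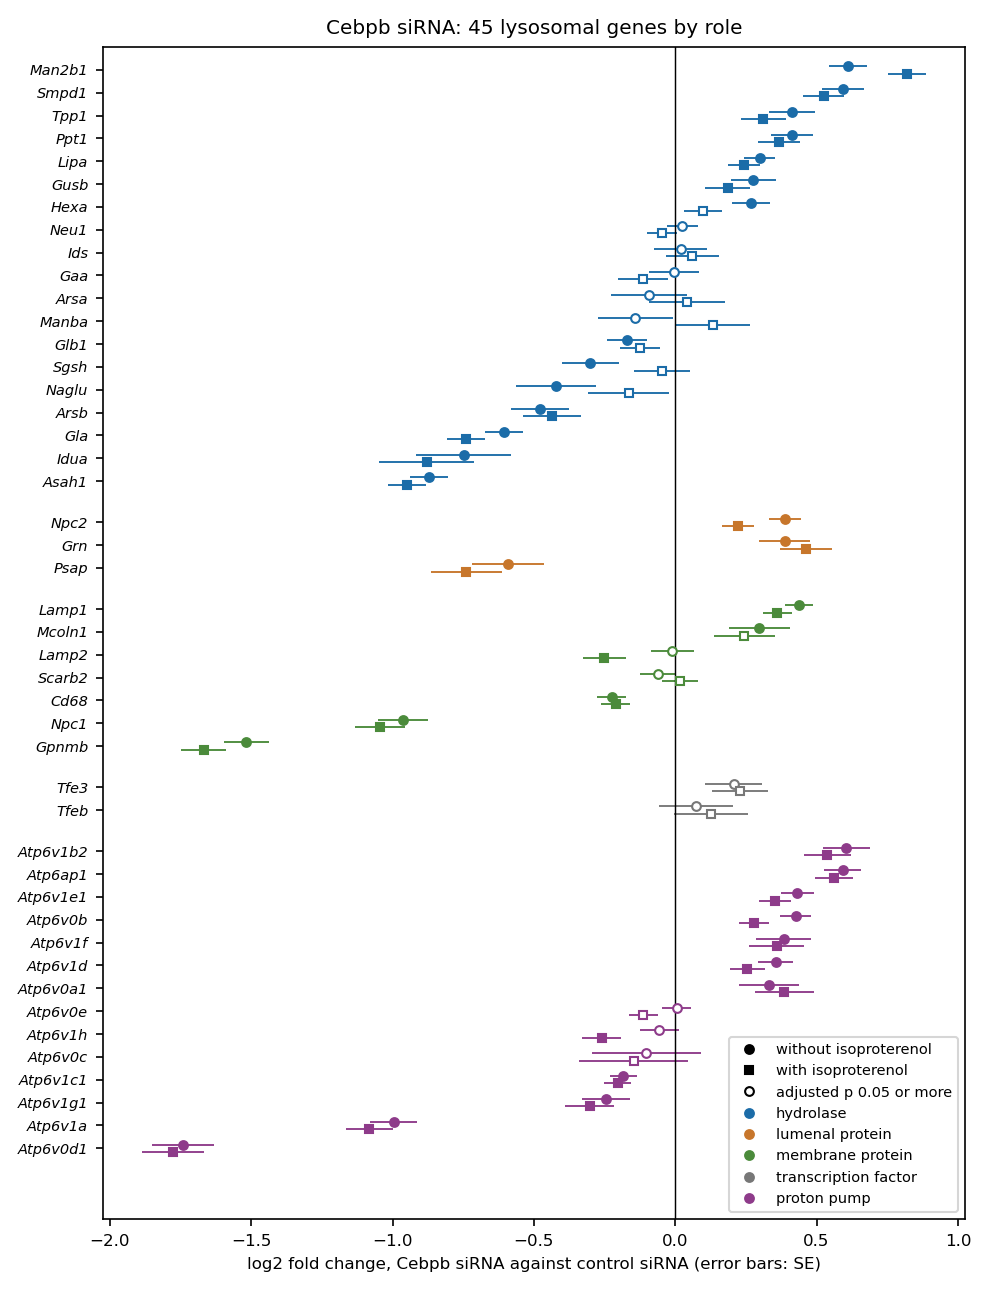
The log2 fold change of each of 45 lysosomal genes in Cebpb siRNA against control siRNA cells (horizontal axis, error bars SE), without isoproterenol (circles) and with it (squares), grouped by role. Filled symbols passed limma's adjusted p threshold of 0.05. Each role except the transcription factors has genes on both sides of 0, and Atp6v0d1 (−1.74 and −1.78) and Gpnmb (−1.52 and −1.67) lie farthest to the left.

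Among the 19 hydrolases 7 were higher, 7 lower and 5 passed no threshold, where 31.5% of all tested genes were higher and 29.8% lower. Man2b1 (ENSMUSG00000005142.10, chromosome 8, 85083270 to 85098282, plus strand) encodes lysosomal α-mannosidase, which trims glycans of glycoproteins. It stood at 91.9, 96.2, 74.9 and 85.7 RPM with control siRNA and at 140.3, 142, 117 and 102 with Cebpb siRNA. The lowest Cebpb siRNA library was above the highest control library, at log2 0.61 ± 0.07 (fold change ± SE; adjusted p = 5.24e-08). Asah1 (ENSMUSG00000031591.14, chromosome 8, 41340197 to 41374773, minus strand), acid ceramidase, moved the other way. Its levels were 30.9, 29.4, 32.4 and 34.1 RPM with control siRNA and 15.7, 17.97, 15.9 and 15.3 with Cebpb siRNA. The 4 libraries of each group lay close together and the groups did not overlap. Asah1 fell to 54.7% of control (log2 −0.87 ± 0.07, adjusted p = 3.02e-10).

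The other hydrolases that rose act on different substrates. Smpd1, acid sphingomyelinase, changed by log2 0.59 ± 0.07. Ppt1, which removes palmitate from proteins, and Tpp1, a peptidase, each rose by 0.41 on the log2 scale. Lipa, lysosomal acid lipase, changed by 0.30 ± 0.06, Gusb, β-glucuronidase, by 0.28 ± 0.08, and Hexa, the α subunit of β-hexosaminidase, by 0.27 ± 0.07. The pooled levels of Lipa overlapped, and its call was lost without a term for the experiment (adjusted p = 0.108), as were those of Glb1, Naglu and Sgsh, named next (0.0574, 0.0933 and 0.116). On the values as deposited the call of Gusb was lost (adjusted p = 0.0735). Among the other hydrolases that fell, Idua, α-L-iduronidase, changed by −0.75 ± 0.17, Arsb, arylsulfatase B, by −0.48 ± 0.10, Naglu, N-acetylglucosaminidase, by −0.42 ± 0.14 and Sgsh, sulfamidase, by −0.30 ± 0.10. Gla, α-galactosidase A, changed by −0.60 ± 0.07 and Glb1, β-galactosidase, by −0.17 ± 0.07. The call of Glb1 was lost when any of 6 of these 8 libraries was left out, all but replicate 2 of experiment 1 with control siRNA and replicate 1 of experiment 1 with Cebpb siRNA, and that of Naglu or Sgsh without replicate 1 of experiment 1 with control siRNA, for Naglu also without replicate 2 of experiment 2 with Cebpb siRNA. Exons of Glb1 overlap those of Tmppe on the same strand, and exons of Hexa, Arsa, Arsb, Idua, Sgsh and Ppt1 overlap genes on the other strand, whose reads can be told apart only where counting used the strand, which is not stated. Gaa, Ids, Neu1, Arsa and Manba passed no threshold, with log2 differences of −0.14 to 0.03.

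Of the 3 other lumenal proteins, 2 rose and 1 fell, where 31.5% of all tested genes were higher and 29.8% lower. Psap (ENSMUSG00000004207.14, chromosome 10, 60277627 to 60302597, plus strand) encodes prosaposin, the precursor of the saposins that present sphingolipids to hydrolases. It stood at 1163, 1108, 1405 and 1314 RPM with control siRNA and at 734, 716, 677 and 994 with Cebpb siRNA. The groups did not overlap, although replicate 2 of experiment 2 was well above the other Cebpb siRNA libraries. The log2 fold change was −0.59 ± 0.13 (adjusted p = 4.75e-04). Npc2 (ENSMUSG00000021242.9, chromosome 12, 84754562 to 84773152, minus strand), which carries cholesterol inside the lysosome, stood at 484, 458, 537 and 579 RPM and at 622, 624, 621 and 643 RPM in the same order. Its 4 Cebpb siRNA libraries were nearly equal and all above the controls, at log2 0.39 ± 0.06 (adjusted p = 4.35e-06). Grn, the progranulin gene, rose by log2 0.39 ± 0.09 with overlapping groups. Its exons overlap those of Fam171a2 on the other strand, as do those of Lamp1, Npc1, Atp6v0b, Atp6v1e1 and Atp6v1h with other genes.

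Of 7 tested membrane proteins 2 rose, 3 fell and 2 passed no threshold, where 31.5% of all tested genes were higher and 29.8% lower. Gpnmb (ENSMUSG00000029816.10, chromosome 6, 49036546 to 49070929, plus strand), a glycoprotein of lysosomes and melanosomes, stood at 119, 126, 139 and 128 RPM with control siRNA and at 39.1, 42.1, 47.4 and 38.8 with Cebpb siRNA. The groups were far apart in both experiments, at log2 −1.52 ± 0.08 (adjusted p = 6.03e-13). Npc1, the membrane partner of Npc2 in cholesterol export, fell by log2 0.96 (SE 0.09, adjusted p = 4.08e-09), from 22.2 ± 2.56 to 10.7 ± 1.20 RPM (SD, n = 4 each). Npc1 and Npc2 thus had opposite signs. Cd68, a glycoprotein used as a macrophage marker, changed by −0.22 ± 0.05. Lamp1 (ENSMUSG00000031447.7, chromosome 8, 13159161 to 13175338, plus strand), a major glycoprotein of the lysosomal membrane, stood at 977, 904, 855 and 932 RPM with control siRNA and at 1202, 1219.6, 1131 and 1097 with Cebpb siRNA. Every Cebpb siRNA library was above every control library, at log2 0.44 ± 0.05 (adjusted p = 1.30e-07). Lamp2, the related glycoprotein, differed by −0.01 ± 0.07 (adjusted p = 0.919), so Lamp1 and Lamp2 had different calls. Mcoln1, a lysosomal calcium channel, rose by 0.30 ± 0.11, and Scarb2, the receptor that carries glucocerebrosidase to lysosomes, differed by −0.06 ± 0.06 without a call. The call of Mcoln1 was lost when replicate 1 or replicate 2 of experiment 1 with control siRNA, or either replicate of experiment 1 with Cebpb siRNA, was left out, and on the values as deposited (adjusted p = 0.138).

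Of 14 tested V-ATPase genes 7 rose and 4 fell, where 31.5% of all tested genes were higher and 29.8% lower. The V-ATPase median log2 fold change was 0.17, against 0.02 over all tested genes, and the median size 0.37, against 0.35. In the V1 sector the catalytic site is built from the A and B subunits. Atp6v1a, subunit A, went from 484 ± 44.6 to 229 ± 39.4 RPM (SD, n = 4 each), 50.2% of control (limma adjusted p = 9.10e-10). Atp6v1b2 (ENSMUSG00000006273.14, chromosome 8, 69088646 to 69113711, plus strand), subunit B, stood at 424, 389, 555 and 528 RPM with control siRNA and at 644, 659, 645 and 728 with Cebpb siRNA. All Cebpb siRNA libraries were above all controls (log2 0.61 ± 0.08, adjusted p = 1.52e-06). The 2 subunits of the same site therefore had opposite signs. Atp6v1e1 (0.43 ± 0.06), Atp6v1f (0.38 ± 0.10) and Atp6v1d (0.35 ± 0.06), of the stalks and the rotor of V1, rose on the log2 scale. Atp6v1g1 (−0.25 ± 0.09) and Atp6v1c1 (−0.18 ± 0.05), other stalk subunits, fell, and Atp6v1h, a regulatory subunit, differed by −0.06 ± 0.07 without a call.

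In the V0 sector Atp6v0d1 (ENSMUSG00000013160.7, chromosome 8, 105524465 to 105566047, minus strand), the d subunit that joins V0 to the rotor, showed the largest change of all 45 genes. It stood at 32.7, 26.4, 28.8 and 28.4 RPM with control siRNA and at 7.86, 8.59, 6.95 and 9.23 with Cebpb siRNA. Each Cebpb siRNA library held less than each control library by a wide margin, at log2 −1.74 ± 0.11 (adjusted p = 8.01e-12). The other isoform of this subunit, Atp6v0d2, known from osteoclasts and some macrophages, was listed at 0 in all libraries of all 4 groups. Atp6v0b (ENSMUSG00000033379.13, chromosome 4, 117884326 to 117887333, minus strand), a proteolipid of the proton-carrying ring, stood at 236, 217, 263 and 246 RPM and, with Cebpb siRNA, at 301, 304, 297 and 305 RPM. The groups did not overlap (log2 0.43 ± 0.05, adjusted p = 4.47e-07). Atp6v0a1, the large membrane subunit, and Atp6ap1, an accessory protein of pump assembly, rose by 0.33 and 0.59 on the log2 scale. For Atp6v0a1 the change was 0.11 in experiment 1 alone and 0.53 in experiment 2 alone (limma adjusted p = 0.209 and 0.00704). With isoproterenol it was 0.12 and 0.64 in the same order (limma adjusted p = 0.188 and 0.00219). Atp6v0e differed by 0.01 ± 0.05 and Atp6v0c, the main ring proteolipid, by −0.10 ± 0.19, both without a call. The call of Atp6v0a1 was lost without replicate 1 of experiment 2 with Cebpb siRNA and on the values as deposited (adjusted p = 0.0535), and that of Atp6v1g1 without replicate 1 of experiment 1 with control siRNA or replicate 2 of experiment 1 with Cebpb siRNA. Atp6v0c was at most 2.07 RPM and above the floor in 12 libraries, and reads shared with near-identical copies may not have been counted, so its level is uncertain. The same holds for Cd63, which has a pseudogene copy that was also listed at 0.

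Tfeb and Tfe3 themselves passed no threshold. Tfeb stood at 8.61, 7.82, 6.70 and 6.03 RPM with control siRNA and at 7.67, 10.2, 6.99 and 4.67 with Cebpb siRNA, a log2 difference of 0.07 ± 0.13 (95% interval −0.20 to 0.34, adjusted p = 0.650). Tfe3 stood at 17.7, 14.5, 15.3 and 15.9 RPM against 15.4, 16.4, 18.6 and 17.9 RPM, a difference of 0.21 ± 0.10 (95% interval −0.00 to 0.41, adjusted p = 0.0795). The groups of both genes overlapped. Without adjustment neither had p below 0.05 in this comparison. The call of Tfe3 was gained, at adjusted p = 0.0291, when replicate 1 of experiment 1 with control siRNA was left out. Of 5 genes with the 8-letter promoter form, whose letters are printed above, Atp6v0d1, Atp6v1a and Gla fell, Mcoln1 rose and Atp6v0e had no call. Over all tested genes with that form, 75 of 207 were higher and 72 lower. Of 12 lysosomal genes with the 6-letter form 3 rose and 6 fell, and of the 27 without it 14 rose and 5 fell. Over all tested genes 293 of 1045 with the 6-letter form were higher and 363 lower, against 2394 and 2214 of 7332 without it. With isoproterenol 2 of the 12 lysosomal genes with it rose and 3 fell, since Glb1, Naglu and Sgsh, which hold it, had no call there. Lamp1, with 4 matches of the 6-letter form between 61 and 15 bases before its start, was among those that rose.

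**Figure D2:**
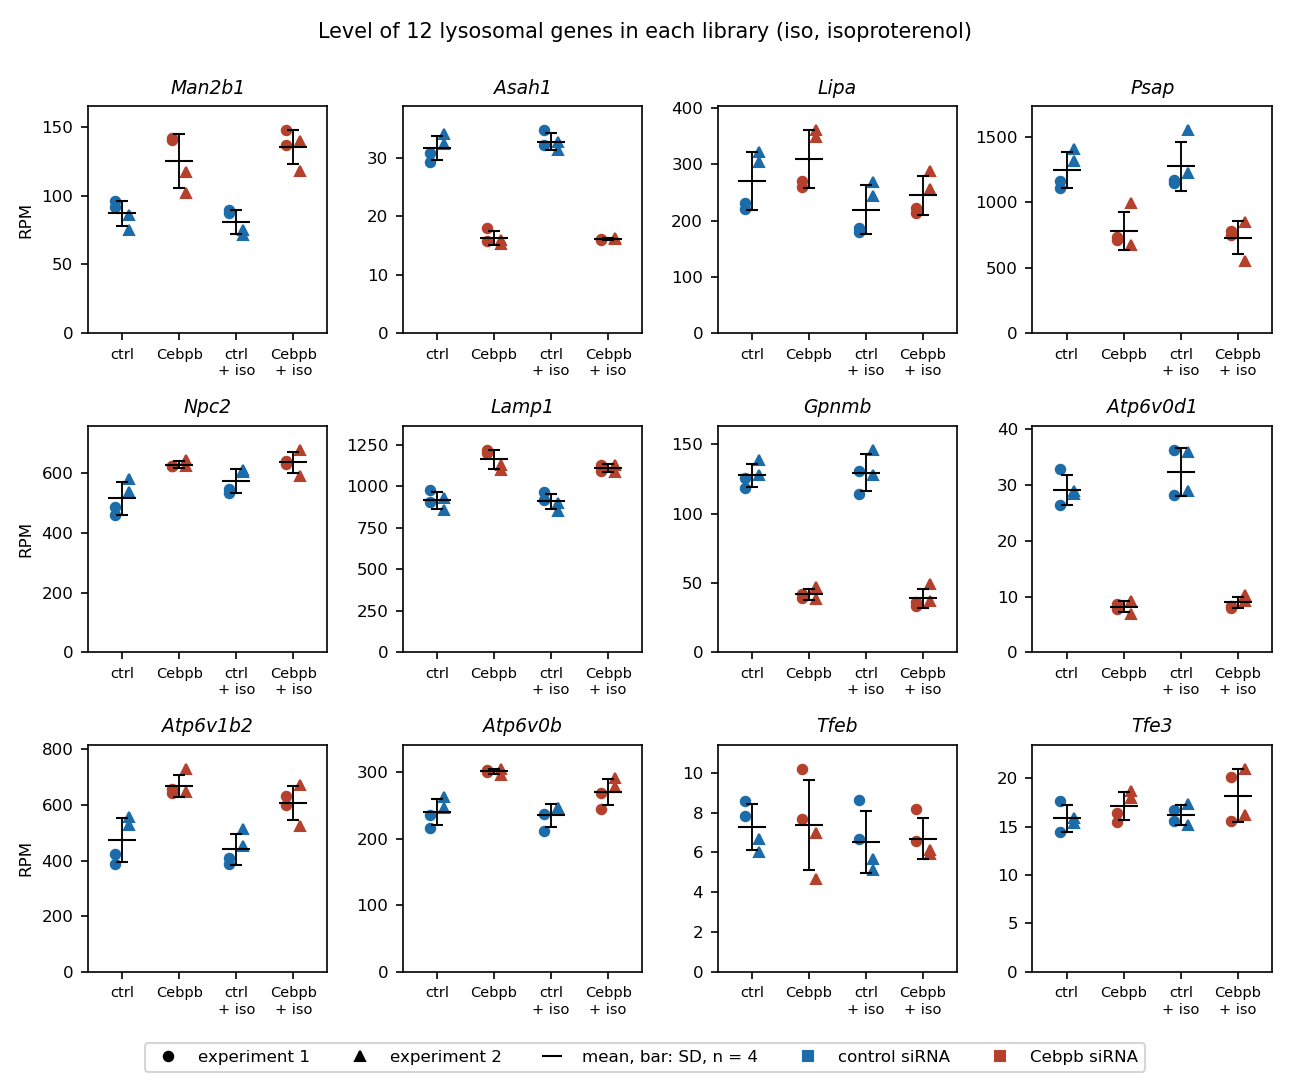
Levels of 12 lysosomal genes in each library, in RPM on linear axes that start at 0, for the 4 groups. Circles are experiment 1, triangles experiment 2, and the black marks give the mean ± SD (n = 4). Gpnmb, Atp6v0d1, Asah1 and Psap lie lower in both Cebpb siRNA groups, Man2b1, Lamp1 and Atp6v1b2 lie higher, and the groups of Tfeb and Tfe3 overlap.

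The same comparison in cells given isoproterenol rests on 8 other libraries. Of 45 genes 16 were higher and 14 lower, where 32.1% of all tested genes were higher and 30% lower. The median log2 fold change was 0.04, against 0.02 over all tested genes, and the median size without regard to sign was 0.26, against 0.36. Calls were the same as without isoproterenol for 28 genes, 16 higher and 12 lower in both, and none was called in opposite directions. Man2b1 stood at 87.4, 89.4, 75.1 and 71.7 RPM with control siRNA and isoproterenol and at 137, 148, 118 and 139.7 with Cebpb siRNA and isoproterenol (log2 0.82 ± 0.07, adjusted p = 4.73e-10). In the same order Asah1 stood at 32.3, 34.7, 31.4 and 32.8 RPM against 16.1, 15.99, 16.4 and 16.1 RPM (log2 −0.95 ± 0.07, adjusted p = 6.31e-11). Neither gene's groups overlapped. Psap stood at 1175, 1152, 1227 and 1552 RPM against 749, 778, 848 and 549.9 RPM (log2 −0.74 ± 0.13, adjusted p = 4.67e-05). Npc2 stood at 531, 546, 603 and 609 RPM against 640.1, 631, 676 and 589 RPM (log2 0.22 ± 0.06, adjusted p = 0.00193). Psap was lower in every Cebpb siRNA library, while the groups of Npc2 overlapped through the lowest Cebpb siRNA library, replicate 2 of experiment 2. On the values as deposited Npc2 lost its call (adjusted p = 0.0535), and the call of Gusb (log2 0.19 ± 0.08) was lost in 12 of 16 fits that left out a library, all but those without either replicate of experiment 2 with Cebpb siRNA or replicate 2 of experiment 2 in either group with isoproterenol.

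Gpnmb stood at 114, 131, 128 and 146 RPM with control siRNA and isoproterenol and at 33.6, 36.2, 49.3 and 37.1 with Cebpb siRNA and isoproterenol (log2 −1.67 ± 0.08, adjusted p = 1.16e-13). In the same order Lamp1 stood at 920.4, 964, 899 and 852 RPM against 1089.6, 1127, 1087 and 1130.5 RPM (log2 0.36 ± 0.05, adjusted p = 1.99e-06). Both kept their direction with no overlap between groups. Atp6v0d1 stood at 28.2, 36.3, 28.8 and 35.8 RPM against 7.95, 8.37, 10.2 and 9.19 RPM (log2 −1.78 ± 0.11, adjusted p = 5.36e-12). Atp6v1b2 stood at 388, 408, 452 and 514 RPM against 632, 601, 671 and 524 RPM (log2 0.54 ± 0.08, adjusted p = 7.12e-06). The d subunit was again far lower in Cebpb siRNA cells and subunit B higher, without overlap of the groups. Subunit A changed by log2 −1.08 ± 0.08 and Npc1 by −1.05 ± 0.09, to less than 50% of their control levels.

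Atp6v0b stood at 211, 237, 247 and 246 RPM with control siRNA and isoproterenol and at 246, 269, 292 and 279 with both, with overlapping groups (log2 0.28 ± 0.05, adjusted p = 1.06e-04). Hexa (0.10 ± 0.07), Glb1 (−0.13 ± 0.07), Naglu (−0.17 ± 0.14), Sgsh (−0.05 ± 0.10) and Mcoln1 (0.24 ± 0.11), called without isoproterenol, passed no threshold with it. The experiments differed for Naglu, at −0.57 in experiment 1 alone and 0.23 in experiment 2 alone (limma adjusted p = 6.99e-04 and 0.290). Mcoln1 stood at 0.04 and 0.43 in the same order (limma adjusted p = 0.840 and 0.0315). Lamp2 (−0.25 ± 0.07) and Atp6v1h (−0.26 ± 0.07) were called lower with isoproterenol and not without it. None of these 7 differences between the comparisons passed the test of the difference itself, given below. Tfeb stood at 6.68, 8.65, 5.13 and 5.66 RPM and, with Cebpb siRNA, at 6.57, 8.18, 6.13 and 5.92 RPM. Tfe3 stood at 15.6, 16.7, 15.2 and 17.4 RPM against 15.5, 20.1, 16.2 and 20.9 RPM. Both genes' groups overlapped, at log2 0.13 ± 0.13 for Tfeb (adjusted p = 0.414) and 0.23 ± 0.10 for Tfe3 (adjusted p = 0.0517), and Tfe3 had p below 0.05 before adjustment. The call of Tfe3 was gained (adjusted p from 0.0202 to 0.0457) without replicate 1 of experiment 1 with control siRNA, replicate 2 of experiment 2 with Cebpb siRNA, or replicate 1 of either experiment with Cebpb siRNA and isoproterenol. Calls were likewise gained for Mcoln1 (without replicate 2 of experiment 1 with control siRNA and isoproterenol, or replicate 1 of experiment 1 with Cebpb siRNA and isoproterenol), Glb1 (without replicate 1 of experiment 2 with control siRNA and isoproterenol) and Atp6v0e (without replicate 2 of experiment 2 with Cebpb siRNA).

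The summed level of a role shows how far opposite changes offset each other. Hydrolases summed to 1845 ± 85.2 RPM with control siRNA and to 2035 ± 93.9 with Cebpb siRNA (SD, n = 4 each). Lumenal proteins summed to 2452 ± 172 and 2259.9 ± 62.5 RPM, membrane proteins to 1776 ± 61.1 and 1843 ± 57.7, and the proton pump to 2819.7 ± 143 and 3079 ± 128. The ranges of the 2 groups, pooled over experiments, overlapped for each of these 4 roles. With isoproterenol the pooled ranges overlapped as well, with hydrolases at 1841 ± 79.1 and 1967 ± 104 RPM, lumenal proteins at 2557 ± 187 and 2297 ± 98.5, membrane proteins at 1803 ± 49.6 and 1773 ± 22.1, and the pump at 2822 ± 76.7 and 2991 ± 95.4. Within each experiment alone, the pump sums with isoproterenol were higher and the lumenal sums lower in both Cebpb siRNA libraries than in both controls. Without isoproterenol this held for the pump in experiment 1 and for the lumenal proteins in experiment 2, and the other experiment overlapped. In experiment 1 the hydrolase sums were higher in both Cebpb siRNA libraries than in both controls, with and without isoproterenol. Membrane sums in experiment 1 were higher with Cebpb siRNA without isoproterenol (1867 and 1913 against 1856 and 1725 RPM). With isoproterenol these membrane sums were lower (1775 and 1803 against 1805 and 1870 RPM). Hydrolase and membrane sums overlapped in experiment 2, with and without isoproterenol. No test was made on sums, which follow the most abundant genes. They use the values as deposited, without further scaling. On those values the all-gene median log2 fold change after Cebpb siRNA was −0.07 without and −0.04 with isoproterenol. After scaling it was 0.02 in both. The part of scaling in the overlaps and in the small differences of sums was not tested.

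The longest annotated 3′ untranslated region of each gene was searched for a 7-letter word, AACTTGT. Earlier work on these libraries had found the word among transcripts lower with Cebpb siRNA. The comparison therefore describes these fold changes and is no independent test of them. The siRNA sequence was not used here, and its part in the word was not tested. The word was present in 11 of the 45 tested genes: Arsb, Asah1, Atp6v0d1, Atp6v0e, Atp6v1a, Atp6v1g1, Gla, Lamp2, Npc1, Psap and Scarb2. Of these 11 genes 8 fell and none rose without isoproterenol, with a median log2 fold change of −0.59. Of the 30 genes with neither the word nor its core ACTTGT, 17 rose and 6 fell (20%), with a median of 0.29. Of the 4 with the core alone, 1 rose and 1 fell. Over all 10117 tested genes with an annotated region, also without isoproterenol, 49.3% of 1511 genes with the word fell, 35.2% of 2345 with the core alone and 25.3% of 6261 with neither. Of the 1511 genes 300 rose, at a median of −0.23, and of the 6261 genes 2252 rose, at a median of 0.08. With isoproterenol 9 of the 11 lysosomal genes with the word fell and none rose, where 50.2% of all tested genes with it fell. Of those 1511 genes 297 rose there. Regions with the word were longer, with a median of 1718 bases against 752 for lysosomal genes with neither.

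The word did not set the genes apart completely. Lamp2, Scarb2 and Atp6v0e held it and had no call without isoproterenol, and Gpnmb, at log2 −1.52, lacked both the word and its core. Which annotated 3′ ends these cells used was not examined, so transcripts measured here may lack a site. The first site in each of 6 genes that fell is shown, with 10 bases on either side, from the annotated transcripts (GENCODE vM21, GRCm38), because these genes include the pump subunits A and d and the lipid-handling genes Gla, Asah1 and Psap. Capitals mark the word, and U is written as T. In Atp6v0d1, Atp6v1a and Gla it is followed by A, and 252 of the 448 tested genes with this 8-letter form, AACTTGTA, fell without isoproterenol (71 rose). Atp6v0d1, Atp6v1a and Gla, and also Atp6v0e, hold the promoter form TCACGTGA as well as the word. Mcoln1, which rose, holds that promoter form and lacks the word. The parts of the promoter form and of the word in these changes were not tested.
Atp6v0d1: atgtctaagaAACTTGTatgactttca
Atp6v1a: ccatactgtaAACTTGTatgtaaggtg
Atp6v1g1: gctaggacttAACTTGTtacatgtttt
Gla: gttttcttatAACTTGTaaccggtagg
Asah1: ctgcaaacagAACTTGTtcatctttct
Psap: ggggaggggaAACTTGTgaatgtaact

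**Figure D3:**
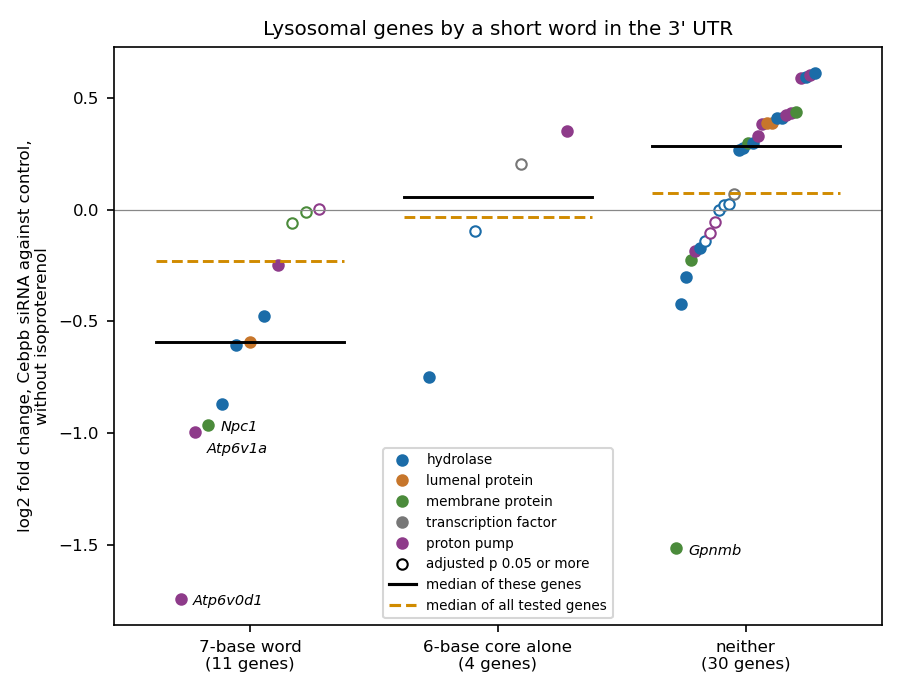
The log2 fold change in Cebpb siRNA against control siRNA cells without isoproterenol (vertical axis) of lysosomal genes with the 7-letter word in the 3′ untranslated region, with its 6-letter core alone, and with neither. Each point is a gene, solid lines are medians of the lysosomal genes and dashed lines medians of all tested genes. The lysosomal medians are −0.59 with the word and 0.29 with neither, and those of all tested genes −0.23 and 0.08.

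The effect of isoproterenol was compared within control siRNA cells. Of the 45 genes 1 fell and none rose by limma, where 1.17% of all tested genes were higher and 0.453% lower. Without adjustment 1 gene was higher and 3 lower at p below 0.05. The gene that fell was Lipa (ENSMUSG00000024781.16, chromosome 19, 34492318 to 34527474, minus strand), the acid lipase that releases cholesterol and fatty acids from lipoproteins. It stood at 231, 221, 305 and 323 RPM without isoproterenol and at 179, 186, 243 and 269 with it. Levels were higher in experiment 2, so the pooled ranges overlapped, but within each experiment both libraries with isoproterenol were below both without. The log2 fold change was −0.34 ± 0.06 (adjusted p = 0.00111). It was −0.36 in experiment 1 alone (adjusted p = 0.00353) and −0.32 in experiment 2 alone (adjusted p = 0.551), and without a term for the experiment it was not called. Among all genes the split was 129 higher and 50 lower, and 145 and 27 on the values as deposited.

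In Cebpb siRNA cells 2 genes fell and none rose with isoproterenol by limma, where 2.83% of all tested genes were higher and 2.64% lower. Without adjustment 1 was higher and 8 lower at p below 0.05. Lipa stood at 260.0, 271, 348 and 360.3 RPM without isoproterenol and at 222, 213, 289 and 256 with it. The highest library with isoproterenol was from experiment 2 and exceeded both unstimulated libraries of experiment 1, while within each experiment the groups were apart. The log2 fold change was −0.39 ± 0.06 (adjusted p = 9.11e-05). Atp6v0b, whose values are given above, was lower in every library with isoproterenol than in every library without, at −0.21 ± 0.05 (adjusted p = 0.0200). In control siRNA cells the difference for Atp6v0b was −0.06 ± 0.05 (adjusted p = 0.752). Its call was lost on the values as deposited (adjusted p = 0.151) and without replicate 1 of experiment 1 of either Cebpb siRNA group. The all-gene split, 313 higher and 292 lower, became 455 and 153 on the values as deposited.

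**Figure D4:**
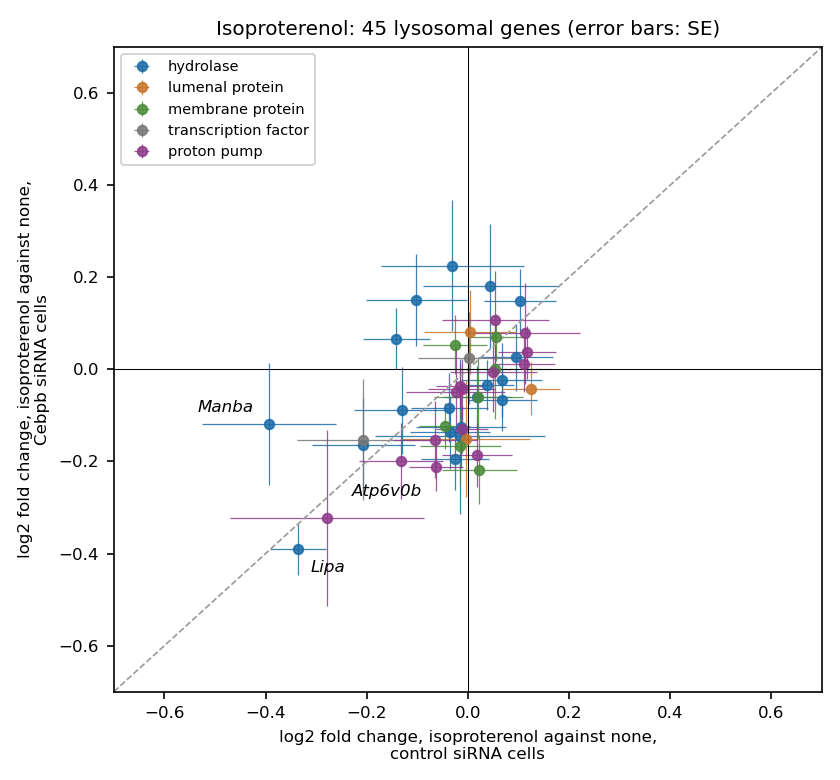
The log2 effect of isoproterenol on each of 45 lysosomal genes in control siRNA cells (horizontal axis) and in Cebpb siRNA cells (vertical axis), with SE on both. The dashed diagonal marks equal effects. Lipa, at −0.34 and −0.39, lies lowest in Cebpb siRNA cells, followed by Atp6v0c (−0.28 ± 0.19 and −0.32 ± 0.19), which has the widest errors and passed neither test, and Manba lies lowest in control siRNA cells (−0.39 ± 0.13, adjusted p = 0.187).

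Whether Cebpb siRNA altered the response to isoproterenol was tested as the difference of the 2 effects. No lysosomal gene passed by limma, where 0.226% of all tested genes were called in either direction, and without adjustment 1 was higher and 2 lower at p below 0.05. Differences ran from −0.24 for Lamp2 to 0.27 for Manba, β-mannosidase. For Lipa the difference was −0.05 ± 0.08 (95% interval −0.22 to 0.11) and for Atp6v0b it was −0.15 ± 0.08 (95% interval −0.30 to 0.01). For Man2b1 it was 0.21 ± 0.09 (95% interval 0.01 to 0.40, adjusted p = 0.743). These intervals, which are not adjusted for the number of genes, bound how far the responses may have differed. Among the 7 genes called in only one of the siRNA comparisons, the adjusted p of the difference was 0.734 for Lamp2, 0.784 for Atp6v1h, 0.851 for Hexa, 0.845 for Sgsh and 0.922 for Naglu. It was 0.983 for Glb1 and 0.988 for Mcoln1.

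The 2 experiments differed from each other in these genes at matched siRNA and stimulation. In experiment 2, 9 of the 45 genes were higher and 15 lower than in experiment 1 (17.2% and 15.7% of all tested genes). Of the 19 hydrolases 11 were lower and 2 higher, with a median log2 difference of −0.18, against a median over all genes of −0.00. Arsa, arylsulfatase A, differed by −0.46 ± 0.09, Naglu by −0.43 ± 0.10, Sgsh by −0.36 ± 0.07 and Neu1, the lysosomal sialidase, by −0.30 ± 0.04. Lipa went the other way, at 0.42 ± 0.04 (adjusted p = 5.10e-08), with Gla at 0.13. Of the proton pump 4 genes were higher and 1, Atp6v1d, lower. Tfeb was lower in experiment 2, at −0.45 ± 0.09 (adjusted p = 8.08e-04). Both experiments held all 4 groups, and the fits above carry a term for the experiment.

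**Figure D5:**
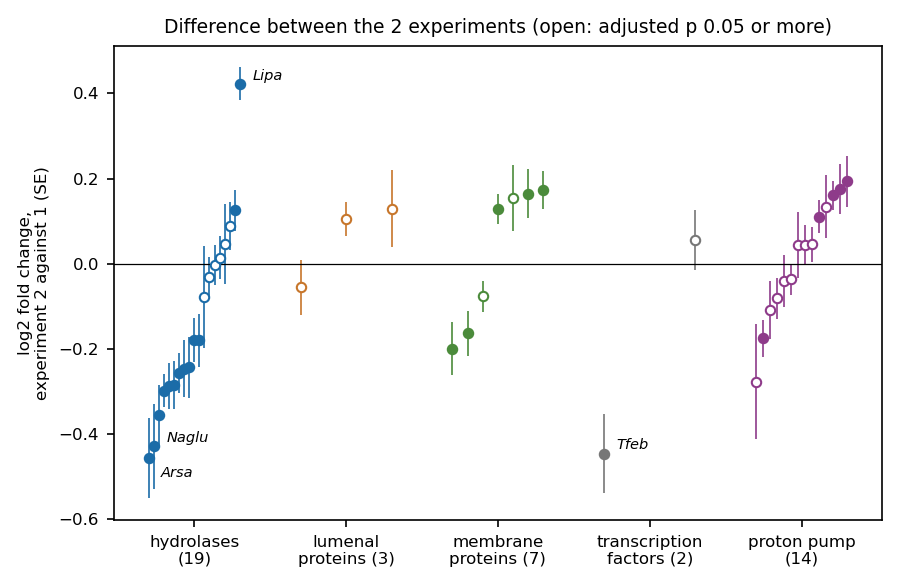
The log2 difference between experiment 2 and experiment 1 for each of 45 lysosomal genes, with SE, grouped by role. Filled symbols passed limma's adjusted p threshold of 0.05. Of the 19 hydrolases 11 lie lower in experiment 2, while Lipa lies 0.42 higher.

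Other genes of the lysosomal system were counted from lists of related proteins. Of 24 tested other lysosomal hydrolases and activators, 16 rose and 3 fell after Cebpb siRNA without isoproterenol, with a median log2 fold change of 0.26. In that comparison 31.5% of all tested genes were higher and 29.8% lower, with a median of 0.02. Naaa, an acid amidase, changed by 1.48 ± 0.15 and Galc, galactocerebrosidase, by 0.70 ± 0.08, while Gm2a, the GM2 activator, changed by −0.51 ± 0.11. Of 24 other membrane proteins 9 rose and 7 fell, among them Cd82 at 1.05, Laptm5 at 0.67 and Cd164, a sialomucin, at −1.47 ± 0.09. Of 10 other pump subunits and assembly factors 5 rose and 3 fell, with Dmxl1 at 0.38 and the assembly factors Vma21 at −0.50 and Tmem199 at −0.63.

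Of 11 genes that deliver hydrolases to lysosomes 5 were higher and 5 lower, where 31.5% of all tested genes were higher and 29.8% lower. The 2 genes of the phosphotransferase that tags hydrolases with mannose 6-phosphate had opposite signs. Gnptg, its γ subunit, changed by log2 1.74 ± 0.12 and Gnptab, its catalytic precursor, by −0.87 ± 0.10. M6pr, a receptor for the tag, changed by −0.64 ± 0.07. Of 18 genes of lysosomal nutrient sensing and TFEB control 7 rose and 4 fell. Flcn, folliculin, which acts in the sensing of amino acids at the lysosome, changed by 0.93 ± 0.13, Lamtor1 and Lamtor5, subunits of the Ragulator complex, by −0.45 and 0.39. Mitf, of the same family as Tfeb and Tfe3, changed by −0.70 ± 0.10 (adjusted p = 4.73e-06). Of 20 autophagy genes 10 rose and 3 fell. Map1lc3a and Map1lc3b, which encode autophagosome membrane proteins, rose by 1.26 and 0.54, while Sqstm1, a cargo receptor, and Ulk1, a kinase of autophagy initiation, fell (−0.47 and −0.57). The median log2 fold changes of the last 5 lists were 0.08, 0.19, −0.01, −0.01 and 0.14. With isoproterenol the 6 lists had 14, 6, 5, 4, 4 and 9 genes higher and 4, 6, 3, 5, 6 and 3 lower, in the order given. The shares over all tested genes were 32.1% higher and 30% lower there. In none of the 6 lists did a gene pass the test of the difference between the isoproterenol effects.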

How the data were processed

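RNA of 16 RAW264.7 libraries was sequenced from the 3′ end. Per the submitters' processing notes, STAR 2.5.3a and GRCm38 were used. The sources used here name neither the counting tool nor its strand setting. The authors deposited log2 values of reads per 1000000 reads of all kinds (RPM), with levels up to 1 RPM listed as 0 and 4 summary entries, which were left out. Because the deposited unit is log2, limma 3.58.1 (R 4.3.3) was used with trend and robust estimation, with terms for group and experiment, and no count test was run. Libraries were scaled by a trimmed mean (30% by ratio, 5% by level) against the mean library, and a common floor of 1.08 RPM was set. The 11044 genes that exceeded it in 4 or more libraries were tested, with Benjamini-Hochberg adjustment over all of them and a threshold of 0.05. The method was tested on simulated data, and 27 other settings were tried, 16 of which left out a library. Levels are means ± SD of deposited RPM, and errors of log2 fold changes are SE.

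Members and lists were chosen with earlier results of these data known. Values in every library are given for the members with the largest rise and fall in each role, those called with isoproterenol, Tfeb, Tfe3, Atp6v0d1 and Atp6v0d2. From each other list up to 2 genes per direction with the smallest adjusted p are named. Gene models came from GENCODE vM21 and promoters from RefSeq (GRCm38.p6). The labels call the libraries of an experiment biological replicates, with no further detail, so p-values measure the spread between these libraries. Figures were drawn with matplotlib 3.10.9.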

Additional observations from a re-analysis of the deposited data

Results flagged for a closer look

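In the 4 Cebpb siRNA libraries without isoproterenol, Npc2 stood at 643 RPM in replicate 2 of experiment 2 and between 620.8 and 623.7 RPM in the other libraries. The gap to the nearest library was 0.869 of the group's range, above the limit for an outlying value among 4. The same library had the fewest reads, 9.42 M, and the part of depth in this value was not tested. Of 48 groups of values examined for the genes given in every library, this was 1, and some such values are met by chance.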

How the results depend on the processing

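After Cebpb siRNA no call of a lysosomal gene changed sign in the 27 settings tried. Of the 33 genes called without isoproterenol, 28 to 33 kept their call when 1 library was left out and 24 to 33 under the other settings. Of the 30 called with isoproterenol, 29 to 30 and 24 to 30 did. The lowest number, 24, came from experiment 2 alone in both. The isoproterenol counts were less stable. In control siRNA cells the 1 lower gene became 0 without the experiment term and in experiment 2 alone, and 2 with only the groups compared in the fit. In Cebpb siRNA cells the 2 lower genes became 1 on the values as deposited, in experiment 2 alone, without trend and robust estimation and with only the groups compared, and 0 without the experiment term. Leaving out 1 library gave 1 to 3. It was 1 without replicate 1 of experiment 1 with Cebpb siRNA, where Atp6v0b was lost, and 3 without replicate 1 of experiment 2 with Cebpb siRNA (Hexa added) or with both (Gpnmb added). Without replicate 1 of experiment 1 with both, Lamp2 took the place of Atp6v0b. The osteoclast marker Mmp9, at log2 0.16 after Cebpb siRNA with isoproterenol, stood at −0.23 in experiment 1 alone and at 0.53 in experiment 2 alone, called in each by limma (adjusted p = 0.00901 and 0.00180). The cause was not tested.

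With a replicate block 18 genes were higher and 14 lower without isoproterenol, and 15 higher and 14 lower with it. Glb1 and Gusb lost their calls. The paired numbers of different groups had correlations of −0.19 to 0.23, with 3 of 12 pairs of groups over 0.1, so the numbers were not taken to pair libraries. At 9 to 25 reads per RPM, genes near the floor, such as Atp6v0c, allow only coarse comparisons.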
